A study of Mus musculus with 81 samples.

Results

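Open chromatin sites that mouse embryonic stem (ES) cells gained by 9h while turning into epiblast-like cells (EpiLC), and still carried at 48h, are described here as early-gained sites. They are the peaks of the 9h bulk list that overlapped a 48h bulk peak by at least 1 bp and overlapped no 0h bulk peak. The rule chose 12782 of the 154758 peaks in the 9h bulk list (8.26%). They were chosen by the bulk peak calls of all 3 times, so their presence at 9h and 48h and their absence at 0h are a description and not a result. Several neighbouring classes served for comparison: 17626 peaks called at 9h only, 35330 called at 0h and 9h only, 89020 called at 0h, 9h and 48h (constant peaks), and 40231 peaks of the 48h bulk list that overlapped neither a 0h nor a 9h bulk peak (late-gained peaks).

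The series comprised 81 mouse samples in 27 groups of 3, and mapped open chromatin by ATAC-seq, in which a transposase cuts and tags accessible DNA. In repli-ATAC-seq, cells took up the nucleotide analogue EdU (20 µM, 10 min) and the labelled, newly copied DNA was captured, with no delay for nascent chromatin and, for mature chromatin, after a chase of 2 h in 10 µM thymidine. The unbound DNA of the capture gave the bulk lists, so nascent or mature and bulk lists of a time came from the same kind of labelled culture. The ES cells were wild type (WT), of the line 129/Ola, and were kept in LIF with 3 µM Gsk3i and 1 µM MEKi. The MEKi was exchanged for an FGFR inhibitor, PD173074 at 250 nM, in the 24 h before conversion. The 0h group was sampled in that state, and the 9h and 48h groups after plating on fibronectin with FGF2 (10 ng/mL) and Activin A (20 ng/mL). Mouse embryonic fibroblasts (MEF) of the background Black6-129X1/SvJ, heterozygous for Col1a1::tetOP-OKSM, R26-M2rtTA and Oct4GFP, carried an inducible cassette of the reprogramming factors. All MEF groups received 2 µg/mL doxycycline and were sampled at 6h, 12h and 36h, at 60h in the fractions Q1 to Q4 sorted by a dye that dilutes with cell division, and at 14h with or without aphidicolin. The labels do not say which fraction divided most. Aphidicolin inhibits the replicative DNA polymerases, and cells had it at 5 µg/mL for 10 h, starting when doxycycline had acted for 4 h. Coordinates are those of mm10, counted from 1.

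Each group of the ES cell course had 1 deposited peak list, so no spread between replicates was available and 95% Wilson intervals cover counting error only. The bulk lists of 0h, 9h and 48h held 154235, 154758 and 152932 peaks. The mature lists held 66518, 94946 and 75941 peaks and the nascent lists 19314, 18587 and 27693. Read depth behind the lists is unknown. The labelled cell states were set against marker genes, counting bulk peaks in each gene with 10 kb on each side (its locus). The loci of 8 formative markers counted 78, 91 and 115 peaks over the 3 times, and those of 8 naive markers 123, 124 and 82. Against these sums, formative Otx2 (10, 9 and 8) and Foxd3 (6, 4 and 3) fell. Naive Nanog (6, 6 and 8) and Tbx3 (9, 8 and 10) rose, and the other markers went with the sums from 0h to 48h. The counts use the same bulk lists as the rule, and 22 of the 91 formative peaks at 9h were early-gained sites. They are therefore no independent check of the cell state. In such samples, fewer cells with an open site and less opening in each cell cannot be told apart.

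Naive ES cells correspond to the epiblast before implantation and are held there by factors such as Esrrb, Nanog and Klf4. When FGF and Activin signals replace the inhibitors, the naive network is shut down, and formative genes such as Fgf5, Otx2, Pou3f1, Dnmt3a and Dnmt3b come on in the EpiLC state, which resembles the epiblast after implantation. New enhancers open during that change, many of them far from promoters. Each round of DNA replication disrupts nucleosomes and bound factors, and accessibility has to be set up again on both daughter strands.

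Most early-gained sites lay away from promoters. RefSeq promoter windows (250 bases before to 50 after an annotated start, on GRCm38.p6, the assembly of mm10) overlapped 249 of the 12782 sites (1.95%), against 14.2% of the constant peaks. In all, 268 of 32815 distinct windows, of 253 genes, overlapped an early-gained site. The windows below show what such a promoter looks like. Bases inside the early-gained site are in capitals, and each sequence is the RefSeq window read 5′ to 3′ on the strand of its gene. Prom2 (prominin 2, a membrane glycoprotein of epithelial cells) and Cyp4f15 (a cytochrome P450) had the highest 48h bulk scores among the 68 protein-coding genes considered, whose window was covered by at least 150 bases. Ccl20 (a chemokine) and Rhox5 (a homeobox factor of the X-linked Rhox cluster) had the highest 9h bulk scores among them. Bmp4, a secreted ligand of the TGF-beta family that acts in the early embryo, was chosen after its values were seen.
Prom2, chr2:127541368-127541667, minus strand: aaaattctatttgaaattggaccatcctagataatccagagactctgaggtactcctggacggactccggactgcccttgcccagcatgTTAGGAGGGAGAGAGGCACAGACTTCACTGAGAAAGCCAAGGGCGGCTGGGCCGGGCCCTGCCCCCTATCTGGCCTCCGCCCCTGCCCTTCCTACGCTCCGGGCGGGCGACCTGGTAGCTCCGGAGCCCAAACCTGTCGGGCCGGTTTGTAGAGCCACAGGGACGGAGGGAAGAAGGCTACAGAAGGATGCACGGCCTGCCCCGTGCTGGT
Cyp4f15, chr17:32685409-32685708, plus strand: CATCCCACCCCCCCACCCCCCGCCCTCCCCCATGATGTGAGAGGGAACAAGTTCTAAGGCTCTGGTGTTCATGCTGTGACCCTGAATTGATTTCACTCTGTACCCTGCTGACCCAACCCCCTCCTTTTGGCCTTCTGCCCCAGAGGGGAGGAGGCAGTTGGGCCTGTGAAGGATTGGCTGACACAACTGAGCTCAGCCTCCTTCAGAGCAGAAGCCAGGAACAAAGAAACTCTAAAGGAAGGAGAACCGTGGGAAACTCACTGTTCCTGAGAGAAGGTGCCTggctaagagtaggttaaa
Ccl20, chr1:83116516-83116815, plus strand: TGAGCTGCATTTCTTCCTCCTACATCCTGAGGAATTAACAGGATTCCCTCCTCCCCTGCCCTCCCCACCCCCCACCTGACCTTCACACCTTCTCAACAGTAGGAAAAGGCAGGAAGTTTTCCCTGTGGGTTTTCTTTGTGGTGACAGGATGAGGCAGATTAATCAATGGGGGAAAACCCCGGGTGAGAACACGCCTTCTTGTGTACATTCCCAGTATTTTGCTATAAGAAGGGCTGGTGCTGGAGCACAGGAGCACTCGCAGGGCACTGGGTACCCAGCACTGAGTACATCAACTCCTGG
Rhox5, chrX:37754358-37754657, plus strand: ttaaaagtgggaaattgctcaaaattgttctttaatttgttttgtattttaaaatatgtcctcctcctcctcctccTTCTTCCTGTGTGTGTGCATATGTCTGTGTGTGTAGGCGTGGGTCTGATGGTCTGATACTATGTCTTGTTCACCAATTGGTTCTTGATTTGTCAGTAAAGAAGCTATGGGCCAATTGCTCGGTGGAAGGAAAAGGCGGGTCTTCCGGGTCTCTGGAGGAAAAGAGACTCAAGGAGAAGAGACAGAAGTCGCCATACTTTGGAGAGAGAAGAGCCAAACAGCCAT
Bmp4, chr14:46390620-46390919, minus strand: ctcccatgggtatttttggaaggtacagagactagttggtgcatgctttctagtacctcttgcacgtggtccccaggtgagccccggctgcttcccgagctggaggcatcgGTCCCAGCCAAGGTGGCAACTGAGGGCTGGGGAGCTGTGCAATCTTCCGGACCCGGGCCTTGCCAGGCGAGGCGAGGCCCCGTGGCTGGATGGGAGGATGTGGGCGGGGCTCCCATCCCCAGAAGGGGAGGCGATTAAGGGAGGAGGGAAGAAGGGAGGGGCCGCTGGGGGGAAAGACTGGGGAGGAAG

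The site at Prom2 had a score of 97 in the 9h bulk list and 2909 in the 48h bulk list, and overlapped a mature and a nascent peak at 48h but no mature peak at 9h. The site at Cyp4f15 scored 331 at 9h and 2345 at 48h, and overlapped a mature peak at 48h only. The site at Ccl20 scored 1194 at 9h and 419 at 48h, with a mature peak at both times. The site at Rhox5 scored 946 at 9h and 364 at 48h, with a mature peak at 9h only, and that at Bmp4 scored 375 and 443, with a mature peak at 9h and a nascent peak at 48h. Scores are the authors' and rank peaks within a list, so a change of score between lists is not read as a change of accessibility.

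In base content these promoters differed from those of constant peaks. Windows that overlapped an early-gained site had a median GC content of 53.0% and a median observed-to-expected CpG ratio of 0.323, against 61.3% and 0.745 for windows at constant peaks and 52.7% and 0.383 over all windows. Their CpG ratio was below that at constant peaks, while those at late-gained peaks (0.275) and at peaks called at 9h only (0.260) lay lower still. Of 17 short motif strings, searched on both strands, a part is given here and read as a description only. The ZIC string CCTGCTG was found in 14.2% of the windows at early-gained sites, in 12.4% at peaks called at 9h only, 17.98% at late-gained peaks, 11.2% at constant peaks and 10.5% of all windows. The KLF string GGGNGTGG was found in 22.4% at early-gained sites, 23.5% at constant peaks and 17.6% of all windows, and the ETS string CCGGAAG in 8.58%, 16% and 8.86%. At peaks called at 9h only and at late-gained peaks the KLF string was in 17.9% and 19.8%, and the ETS string in 6.97% and 2.53%. The CTCF string AGGNGGCGC was in 1.87% of windows at early-gained sites, 0.498% at peaks called at 9h only, 0.743% at late-gained peaks, 6.36% at constant peaks and 3.30% of all windows. The octamer ATGCAAAT, the core of OCT factor sites, was in 1.49% at early-gained sites, 1.51% at constant peaks and 1.74% of all windows. These windows cover 1.95% of the early-gained sites, and the other sites were not searched.

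Early-gained sites were narrow and of low score. Their median width was 225 bp (quartiles 174 and 308) and their median 9h score 150 (85 and 281), against 493 bp and 629 for constant peaks and 217 bp and 106.5 for peaks called at 9h only. Of all early-gained sites, 8447 (66.1%) fell in the weaker 2 of 5 equal classes of the 9h bulk list by score, and 149 fell in the strongest class. The 48h peak at an early-gained site had a median score of 241, against 322 over the 48h list and 159 for late-gained peaks. A median of 92.2% of an early-gained site was covered by 48h peaks. In 44 cases a site shared its 48h peak with another early-gained site, so those are not separate regions at 48h.

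At the edges of the rule, 22 early-gained sites were overlapped by a 48h peak by fewer than 10 bp (median 9h score 55.5), and 10 peaks called at 9h only had a 48h peak within 10 bp that did not overlap (59). Likewise 3 early-gained sites lay within 10 bp of a 0h peak, and 14 constant peaks were overlapped by a 0h peak by fewer than 10 bp. The nearest 0h bulk peak was a median of 3437 bp away, and 1178 sites had a 0h peak within 500 bp. These 1178 lie at the flank of a site already called at 0h.

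Of the early-gained sites, 758 (5.93%, 5.53 to 6.35) lay within 1 kb of an end of a protein-coding gene model, against 4.75% (4.45 to 5.08) of peaks called at 9h only, 5.19% (4.98 to 5.41) of late-gained peaks and 19.3% (19.1 to 19.6) of constant peaks. The gene table gives no exons, so positions are stated as inside or outside a gene model. Inside one lay 6553 early-gained sites (51.3%), against 58.6% of constant peaks. The median distance to a gene end was 21860 bp, and 3893 sites (30.5%) were more than 50 kb from any. By chromosome, early-gained sites made up 7.0% of the 9h peaks on chromosome 17, the lowest, to 9.04% on chromosome 15, the highest. Chromosome Y was left aside, with 3 of 49 peaks.

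On mature chromatin, about 3 in 10 early-gained sites were found again at 9h and about 3 in 10 at 48h, not all of them the same sites. Of the 12782 sites, 263 (2.06%, 1.83 to 2.32) overlapped a mature peak at 0h, 3494 (27.3%, 26.6 to 28.1) at 9h and 3997 (31.3%, 30.5 to 32.1) at 48h. Over all 9h bulk peaks the same shares were 41.4% at 0h, 59.3% at 9h and 41.4% at 48h. Nascent peaks were scarce: 22 sites (0.172%) overlapped one at 0h, 77 (0.602%) at 9h and 534 (4.18%) at 48h. The same shares were 0.187%, 0.522% and 0.675% for peaks called at 9h only, and 0.0746%, 0.0969% and 1.93% for late-gained peaks. For constant peaks they were 19.8%, 19.4% and 27.5%. The mature lists are longer than the nascent lists at every time, and their share of sites cannot be told apart from that difference. At 48h, 31.3% of early-gained sites and 2.86% (2.62 to 3.12) of peaks called at 9h only overlapped a mature peak, while the overall shares of both classes at 9h lay within each other's intervals. The rule separates these 2 classes by the 48h bulk list, and mature and bulk lists come from like cultures, so this gap is not independent of the choice. The same holds for the gap between their 48h nascent shares. It also holds for the low shares at 0h, because the rule left out every peak with a 0h bulk peak. Peaks called at 9h only, chosen without a 0h bulk peak too, overlapped a 0h mature peak in 1.88%.

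**Figure D1:**
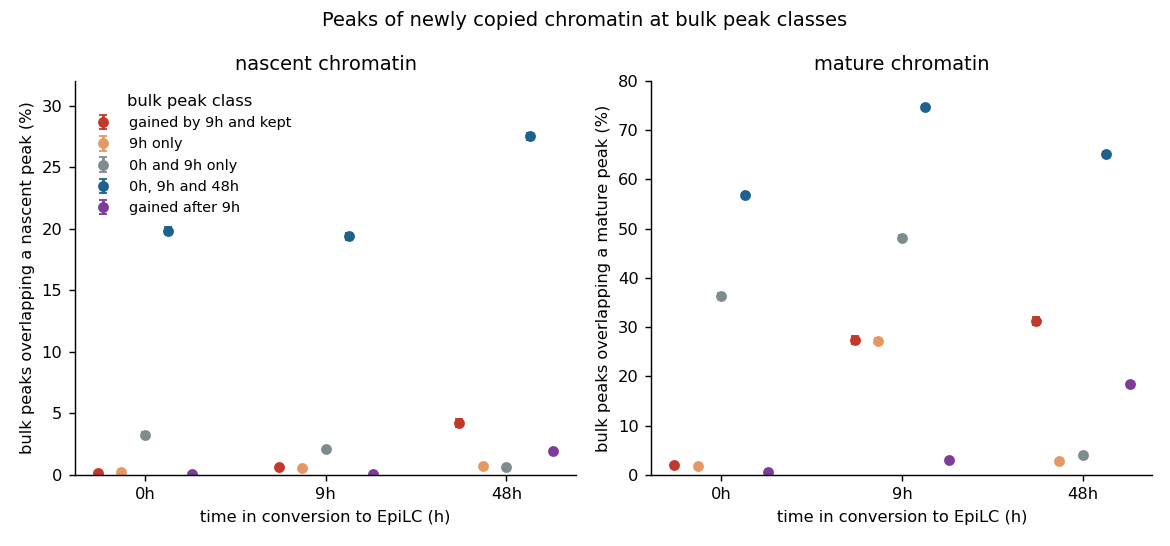
Share of bulk peaks (y axis, %) that overlapped a nascent (left) or mature (right) peak at 0h, 9h and 48h of conversion, for early-gained sites (red, labelled gained by 9h and kept) and the other classes named above; bars are 95% Wilson intervals, mostly smaller than the points. Early-gained sites reached 27.3% at 9h and 31.3% at 48h on mature chromatin and stayed at or below 4.18% on nascent chromatin.

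The mature share at 9h rose with the score of the bulk peak. From the weakest to the strongest of 5 equal score classes of the 9h bulk list, 14.1%, 25.2%, 36.8%, 54.5% and 88.6% of early-gained sites overlapped a 9h mature peak. The same shares were 17.2%, 29.9%, 46.8%, 75% and 93.5% for peaks called at 9h only, and 21.7%, 41.9%, 64.8%, 84.5% and 98.7% for constant peaks. Early-gained sites were therefore lower than both in each score class, and their intervals did not overlap those of either in the weaker 4. In the strongest, with 149 early-gained sites and 31 peaks called at 9h only, the intervals of those 2 sets overlapped. The overall shares at 9h (27.3% and 27.1%) hid this, because peaks called at 9h only were weaker.

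At 48h the comparison was with the late-gained class, and the shares of early-gained sites were higher. From the weakest to the strongest of 5 score classes of the 48h bulk list, 11.3%, 22%, 34.7%, 52.0% and 78.7% of the 48h peaks at early-gained sites overlapped a 48h mature peak, against 7.24%, 14.5%, 26.6%, 44.4% and 76.5% of late-gained peaks. The intervals were apart in all but the strongest score class. The sets were not chosen alike. A 48h peak at an early-gained site could also overlap a 0h bulk peak, and a late-gained peak could not. Of the 48h peaks at early-gained sites 2.37% overlapped a 0h mature peak, against 0.567% of late-gained peaks. The 48h peak at an early-gained site had a median width of 231 bp, against 190 bp for late-gained peaks. The part of these differences in the gap was not tested.

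**Figure D2:**
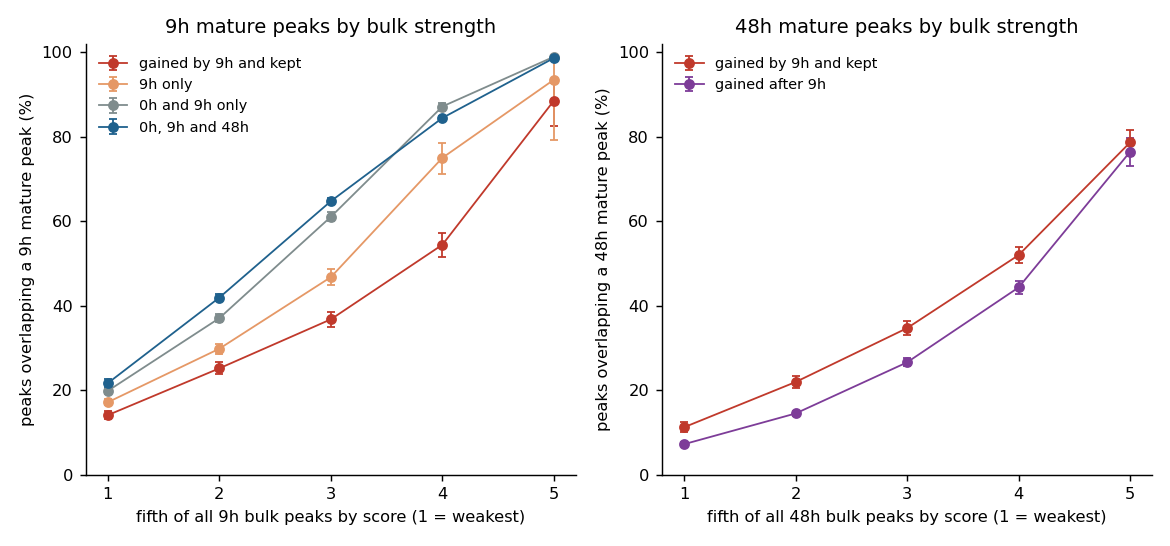
Left, share of 9h bulk peaks overlapping a 9h mature peak by score class of the 9h bulk list; right, share of 48h bulk peaks overlapping a 48h mature peak by score class of the 48h bulk list, with 95% Wilson intervals. Early-gained sites (red) lie below constant peaks and peaks called at 9h only on the left and above late-gained peaks (purple) on the right.

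The sites seen on mature chromatin at 9h and at 48h were partly different ones. Of all early-gained sites, 6922 (54.2%) overlapped no mature peak at any time, 2271 (17.8%) overlapped one at 48h only, 1708 (13.4%) at 9h only and 1618 (12.7%) at 9h and 48h but not 0h. Among the 3494 sites with a 9h mature peak, 48.6% (47.0 to 50.3) also had one at 48h, against 24.7% (23.9 to 25.6) of the 9288 sites without. The 48h nascent share was 6.24% (5.48 to 7.09) and 3.40% (3.05 to 3.79) in these sets. Of the 77 sites with a 9h nascent peak, 55 had a 9h mature peak and 23 a 48h nascent peak. Of the 263 sites with a mature peak at 0h, where no bulk peak was called, 168 had a mature peak again at 9h.

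By their share of 9h peaks, the formative genes were the gene list richest in early-gained sites, with 18.6%. Of 22 formative and EpiLC genes, 15 had at least 1 such site in their locus, where 29.7% of all 21887 protein-coding genes did. Early-gained sites made up 40 of the 215 9h bulk peaks in these loci (18.6%, 14.0 to 24.3), against 7.64% in the loci of all protein-coding genes. Lef1 alone gave 10 of the 40, and without it the share was 15.9% (11.4 to 21.8). Peaks called at 9h only made up 6.51% in the formative loci and 10.9% in all loci, and late-gained peaks 18.9% and 23.6% of 48h peaks. The number of peaks in a locus bears on these counts. Among loci with under 5 peaks at 9h, 1 of 4 formative genes and 11.2% of all genes held an early-gained site. Among those with 5 to 10 peaks it was 10 of 13 and 38.1%, and among those with over 10 it was 4 of 5 and 69.0%. The lists were drawn up with earlier results of these data known, and peaks of 1 list per time give no test.

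Of the 18 naive pluripotency genes, 5 held an early-gained site, and 7 of their 189 9h peaks were early-gained (3.70%, 1.81 to 7.45). In the Wnt pathway list the share was 11.7% (7.91 to 16.9), of which Lef1 gave 10 of 23 sites, and 7.60% without it. Shares in the other 11 lists lay between 4.04% for fibroblast markers and 10.1% for primitive endoderm markers, and the interval of each held the 7.64% of all loci. By genes holding a site, the chromatin and DNA methylation list stood above the formative list, with 9 of 12, at a median of 18.5 peaks per locus against 7.5. General pluripotency genes had 8 of 13, primitive endoderm markers 6 of 10, cadherin and polarity genes 10 of 18 and FGF and ERK feedback genes 8 of 15. The germ layer list had 8 of 17, the Wnt list 6 of 14, endothelial and blood markers 5 of 12, the Nodal and Activin list 7 of 17 and neural markers 4 of 10. Ubiquitous genes had 4 of 16 and fibroblast markers 3 of 18.

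**Figure D3:**
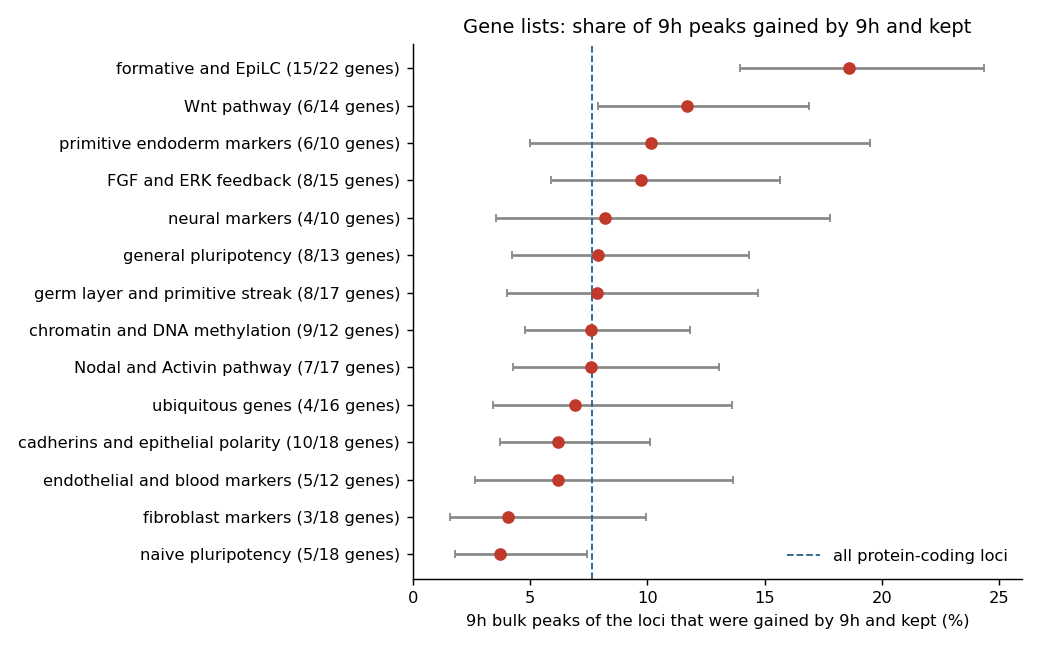
Share of the 9h bulk peaks in the loci of each gene list that were early-gained sites (x axis, %), with 95% Wilson intervals; labels give genes holding a site out of genes in the list, and the dashed line is the share over all protein-coding loci (7.64%). Formative genes lie at 18.6% and naive genes at 3.70%.

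Lef1 and Grhl2 had the most early-gained sites among the formative genes. Lef1, a transcription factor that acts with beta-catenin in Wnt signalling, had 10 early-gained sites among 26 peaks at 9h, where the locus held 20 peaks at 0h and 35 at 48h. A pair of them, chr3:131107261-131107437 and chr3:131107595-131107952, lay 2860 and 2345 bp outside one end of the gene and overlapped a single 48h peak of score 740, so they count as 1 region at 48h. The site chr3:131182378-131182739, inside the gene, scored 340 at 9h and 362 at 48h and overlapped a mature peak at both times. Of the 10 sites, 5 overlapped a mature peak at 48h and 2 at 9h.

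Grhl2, a grainyhead-like factor that opens epithelial enhancers in EpiLC, had 6 early-gained sites among 28 peaks at 9h, with 20 at 0h and 20 at 48h. The strongest at 9h, chr15:37226712-37226998, lay 5823 bp outside the gene and scored 885 at 9h and 375 at 48h. The strongest at 48h, chr15:37243848-37244068, lay inside the gene with 417 and 1065. Sall2, a zinc-finger factor, had 4 sites, the strongest at chr14:52332278-52332497 with 1145 at 9h and 470 at 48h and a mature peak at both times.

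Pou3f1 (Oct6), a POU factor that rises early in the exit from the naive state, had 2 early-gained sites among 5 peaks of its locus, where 3 peaks were called at 0h and 6 at 48h. One of them, chr4:124667890-124668509, scored 640 at 9h and 448 at 48h with mature peaks at both times. A further early-gained site, chr4:124646421-124647113, lay 10533 bp from the gene, just outside the locus. It scored 2481 at 9h and 2552 at 48h, was among the 10 sites of highest 9h score, and overlapped nascent and mature peaks at both times.

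The DNA methyltransferases, which raise DNA methylation as cells leave the naive state, each held early-gained sites. Dnmt3a had 5 among 26 peaks at 9h, with chr12:3887413-3887853 inside the gene at 735 and 718 and mature peaks at 9h and 48h. Dnmt3b had 2 among 9, both inside the gene and both on mature chromatin at 9h and 48h, of which chr2:153651622-153651984 scored 648 and 1112. Dnmt3l, their cofactor without catalytic activity, had 1, chr10:78065022-78065214, at 454 and 769.

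Ligands were represented by Fgf5, the classical EpiLC marker, with 2 sites. The site chr5:98283878-98284227 lay 6845 bp outside the gene and 9478 bp from the nearest 0h peak, and scored 150 at 9h and 1259 at 48h. It overlapped mature peaks at 9h and 48h and a nascent peak at 48h. Fgf15 had 1 site inside the gene with mature peaks at both times. Zscan10 had 2 sites, and Cldn6 (a tight junction claudin), Tcf15, Utf1, Sox3 and Zic2 had 1 each. No site fell in the loci of Otx2, Foxd3, Zic5, Sox4, Sox11, Etv4 or Etv5. At Otx2 the bulk lists held 10, 9 and 8 peaks at 0h, 9h and 48h, and at Etv5 27, 22 and 14.

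**Figure D4:**
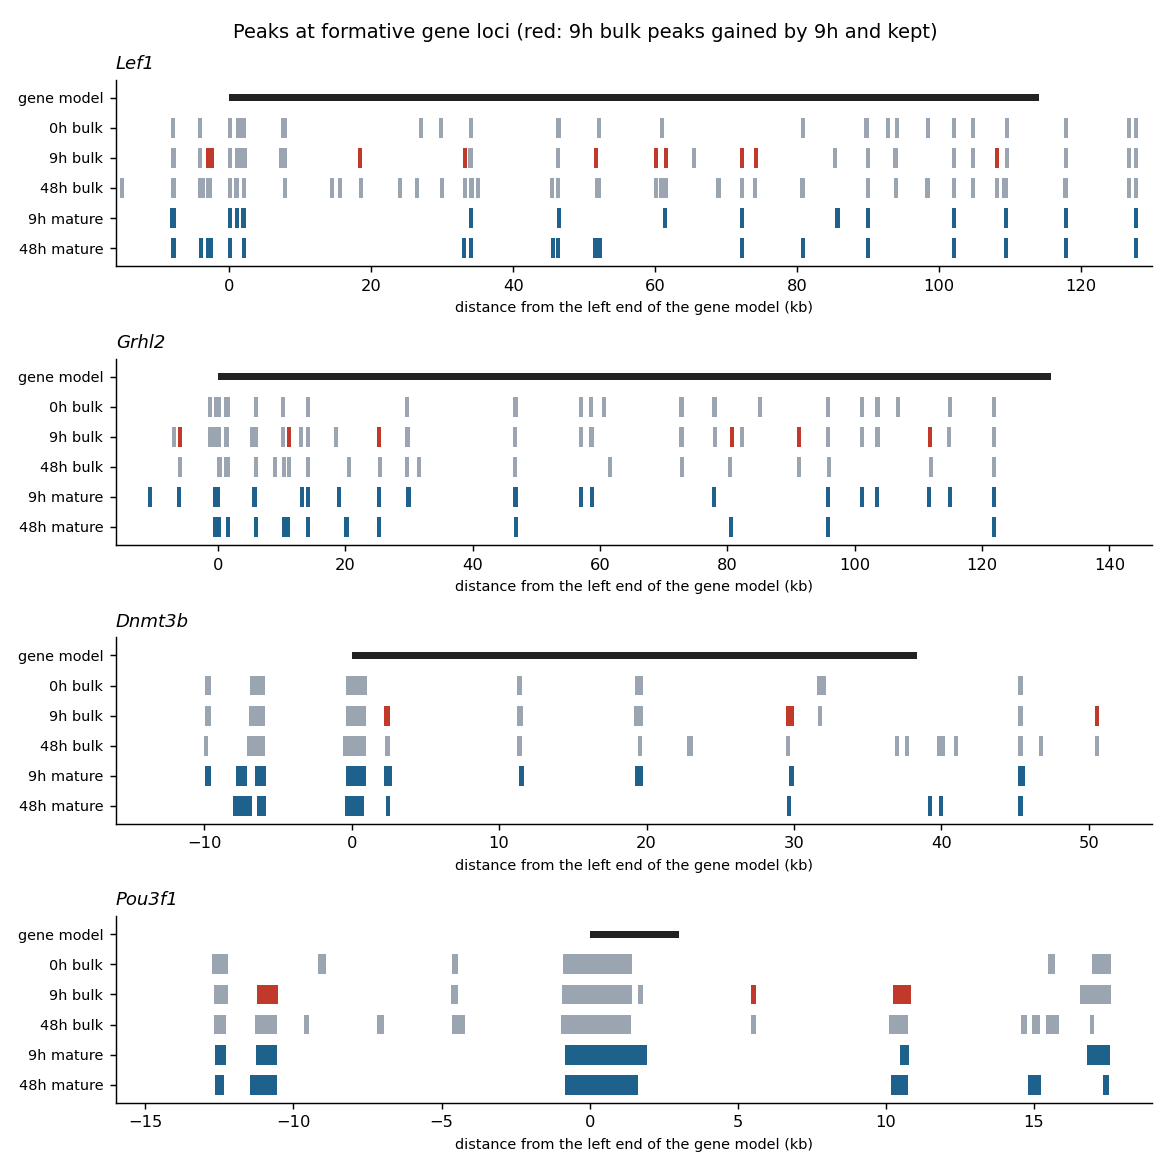
Peaks at 4 formative loci by distance from the left end of the gene model (x axis, kb), with bulk lists of 0h, 9h and 48h in grey, mature lists of 9h and 48h in blue and early-gained sites in red, also where they lie beyond 10 kb; narrow peaks are drawn at a minimum width. Lef1 shows 10 red sites and Pou3f1 2 within 10 kb, with a further one to the left of that window.

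Over the 40 formative sites, 9h scores ran from 37 to 1145 with a median of 164.5, against 150 over all early-gained sites. At 9h 15 of them (37.5%) overlapped a mature peak and none a nascent peak. At 48h 21 (52.5%) overlapped a mature and 6 a nascent peak, against 31.3% and 4.18% of all early-gained sites. The formative sites were also stronger at 48h, with a median 48h score of 328.5 against 241 over all early-gained sites. The 48h mature share rose with that score, and its part in the difference was not tested. None overlapped a mature peak at 0h, 25 lay inside a gene model, and 5 lay within 1 kb of a gene end.

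Naive genes held few sites within 10 kb, while with 50 kb on each side 11 of 18 held one, against 56.7% of all genes. Esrrb, an orphan nuclear receptor of the naive network, had 3 among 43 peaks at 9h, scoring 54, 104 and 149, and its bulk peaks numbered 45, 43 and 35 over the 3 times. Nanog, Klf5, Tbx3 and Zfp281 had 1 each. The site inside Nanog, chr6:122708945-122709114, scored 275 at 9h and 162 at 48h and overlapped no mature peak.

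In the other pathways the sites were spread over many genes. Of the FGF feedback inhibitors, Spry4 had 2 sites, of which chr18:38604886-38605248 scored 784 at 9h and 197 at 48h, and the phosphatase genes Dusp4 and Dusp6 had 2 each. Spred2 had 3, scoring 75 to 108 at 48h. Smad3 and Smad7, a signal carrier and an inhibitor of TGF-beta signalling, had 2 each, as had the Activin antagonist Fst. Tcf7l1, a repressor of Wnt targets in ES cells, had 5 sites among 50 peaks, and Lgr4 4. Both sites of Cdh1 (E-cadherin) and both of Cdh3 (P-cadherin) overlapped mature peaks at 9h and 48h, with Cdh1 chr8:106618425-106618670 at 356 and 1211. The Cdh3 site chr8:106554119-106554263 overlapped a mature peak at 0h as well. The repressor of Cdh1, Snai1, had 2 sites on no mature list. Among chromatin genes the maintenance methyltransferase Dnmt1 and the Polycomb cofactor Jarid2 had 4 each.

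Markers of other cell types held sites too, at a share within counting error of all loci. Pdgfra, a marker of fibroblasts and of primitive endoderm, had 2 and Tek, an endothelial receptor, had 1. The Tek site, chr4:94862907-94864172, was 1266 bp wide and scored 1662 at 9h and 271 at 48h. Ubiquitous genes held 7 sites, 4 of them around Ppia.

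Over all protein-coding genes, the locus with most early-gained sites was Zfhx3, a large zinc-finger homeobox gene, with 18 among 71 peaks at 9h. Zfp423, a zinc-finger factor of BMP signalling, had 13 of 60, Camta1 13 of 92, Cdh4 (R-cadherin) 12 of 56 and Pde4d 11 of 94. Lmo7 had 10 of 45, Prkce 10 of 42, Etl4 10 of 121 and Arhgap26 9 of 89. With 10 of 26 (38.5%), Lef1 had the largest share of these 10 loci. The gene model of Zfhx3 spans 682326 bp and that of Lef1 114061 bp, and long genes hold more peaks of every class.

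The 10 sites of highest 9h score ran from 2288 to 3674. The highest, chr13:66031952-66032162, lay 73025 bp from the nearest gene model, Gm46425, and scored 1762 at 48h. The next were inside Bcar1 (a focal adhesion adaptor), with 3342 at 9h and 247 at 48h, and inside Vmp1 (an autophagy gene), with 3030 and 241. The sites nearest to Zfp281, a zinc-finger factor of the naive list here, at 59734 bp, and to Acpp, at 8646 bp, scored 2425 and 2288 at 9h and 1676 and 2121 at 48h. The others were nearest to Gm40469, Pou3f1, Mgat4d, Ttc39b and Gpr158. Of the 10, 9 overlapped a mature peak at 9h, the exception being that near Gm40469.

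In reprogramming fibroblasts, most early-gained sites were not called. Of 12782 sites, 17.1% (16.5 to 17.8) overlapped a bulk peak of MEF at 6h, 23.0% at 12h and 17.0% (16.4 to 17.7) at 36h. In the bulk lists of the mature capture the shares were 19.8%, 19.7% and 17.7%. For peaks called at 9h only they were 15.2%, 20.3% and 16.2%, for late-gained peaks 11.5%, 14.7% and 9.83%, and for constant peaks 45.6%, 53.9% and 49.3%. The MEF bulk lists of the nascent capture held 177275, 199056 and 137173 peaks. The longest, at 12h, had the largest share in each class. The shortest, at 36h, had about the share of 6h for early-gained sites. It had more than at 6h for constant peaks and peaks called at 9h only, and less for late-gained peaks. None of the 6 bulk lists held 9416 early-gained sites (73.7%), and all 6 held 1570 (12.3%). Peaks called at 9h only were close to this, with 75.9% in none and 10.9% in all 6, and over all 9h bulk peaks the shares were 54.9% and 29.4%.

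Few sites changed between the early and late lists. In neither 6h list but in both 36h lists were 218 (1.71%, 1.5 to 1.94), against 3.33% of all 9h bulk peaks, and in both 6h lists but neither 36h list 307 (2.40%, 2.15 to 2.68), against 2.10%. By 9h score class, weakest to strongest, 12.9%, 15.7%, 20.5%, 27.4% and 29.5% of early-gained sites overlapped the 36h MEF bulk list, against 18.7%, 24.6%, 33.4%, 50.6% and 75.1% of constant peaks. On newly copied MEF chromatin 0.861% of the sites overlapped a mature peak at 6h, 6.37% at 12h and 3.29% at 36h, from lists of 14281, 62704 and 38418 peaks. Of the fractions sorted at 60h, Q1 held 8.78%, Q2 7.59%, Q3 8.97% and Q4 5.95% of the sites, in lists of 71163, 64930, 73518 and 57762 peaks. Constant peaks followed the same order between Q4 and the rest, with 37.3%, 35.4%, 37.3% and 28.4%. Among the 40 formative sites, 6 overlapped both 36h MEF bulk lists, and no other tie to the reprogramming lists was read from them.

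Replication was blocked in MEF only, where the authors deposited read counts over 139000 regions for 3 aphidicolin and 3 untreated libraries (55158844 to 78677381 and 41183769 to 49440524 counts). Of the early-gained sites 2027 (15.9%) overlapped such a region, and 2034 regions overlapped a site, so the comparison covers the minority of sites that fibroblasts also open. Regions at early-gained sites were shifted towards lower counts after aphidicolin, relative to all regions. At an adjusted p under 0.05 (edgeR quasi-likelihood test, Benjamini-Hochberg over 138996 regions), 199 of 2034 (9.78%) were higher and 415 (20.4%) lower. Over all regions 18% were higher and 17.9% lower. Their median log2 fold change was -0.07 and that of all regions 0.02, a difference of -0.09.

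Scaling by library totals in place of TMM shifted the median of all regions by 0.16 and turned the median at early-gained sites to 0.08. It gave 396 higher (19.5%) and 189 lower (9.29%) regions at early-gained sites, against 30.3% higher and 7.99% lower over all regions, and left the difference of medians at -0.09. Among the regions with a peak in all 6 libraries, the difference of medians was -0.048, with 7.11% higher and 25.1% lower at 1504 regions of early-gained sites, against 12.0% and 23.4% over all such regions. At early-gained sites higher regions fell to 109 (5.36%) without aphidicolin library 2, 110 (5.41%) without aphidicolin library 3 and 130 (6.39%) without untreated library 2. Lower regions there fell to 254 (12.49%) without aphidicolin library 2. The shares over all regions fell in these fits too. In the same order 10.99%, 11.54% and 13.07% of all regions were higher, and without aphidicolin library 2 10.92% were lower. Regions at peaks called at 9h only had a median of -0.06, with 11.7% higher and 22.3% lower, close to those at early-gained sites. Regions at constant peaks had a median of -0.17, with 5.53% higher and 33.4% lower, and those at late-gained peaks -0.02, with 11.7% and 18.5%.

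The fold change moved with the strength of the region. By 5 equal classes of all regions on mean log2 CPM (read counts scaled for library size), chosen after the data were seen, the median at early-gained sites was 0.14, 0.04, -0.08, -0.10 and -0.26 from weakest to strongest, against 0.30, 0.15, 0.06, -0.03 and -0.25 over all regions. Early-gained sites were thus lower than all regions in the weaker 4 classes and close to them in the strongest. In the weakest class 15.7% were higher, against 29.3% of all regions, and in the strongest 56.9% were lower, against 53.3%.

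**Figure D5:**
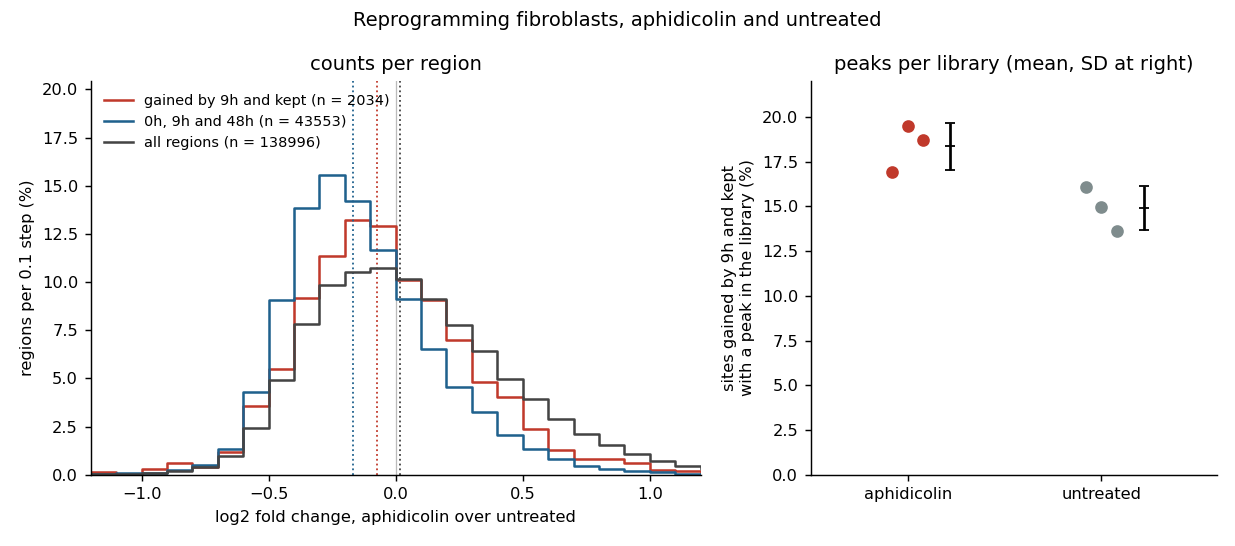
Left, distribution of log2 fold changes (aphidicolin over untreated, TMM scaling) for regions at early-gained sites (red), at constant peaks (blue) and all regions (dark grey), with dotted medians at -0.07, -0.17 and 0.02; right, share of early-gained sites with a peak in each library, with mean and SD. Aphidicolin libraries lie between 16.9% and 19.5% and untreated libraries between 13.6% and 16.1%.

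Peak lists of the single libraries went the other way from the TMM-scaled counts, whose median log2 fold change at early-gained sites was -0.07. With library totals that median was 0.08, in the direction of the peak lists. The peak shares below are not set relative to other regions. Early-gained sites overlapped a peak in 16.9%, 19.5% and 18.7% of cases in the aphidicolin libraries, against 16.1%, 15.0% and 13.6% in the untreated libraries. The groups did not overlap, with 18.4% ± 1.32 in aphidicolin and 14.9% ± 1.23 in untreated libraries (SD, n = 3 each). The difference of 3.46 points had p = 0.1 in a two-sided exact permutation test, the smallest p that 3 against 3 can give. Constant peaks differed by 4.69 points, late-gained peaks by 2.77 and peaks called at 9h only by 2.89. Aphidicolin lists were longer (148292 to 163947 peaks, against 116939 to 129546) and their libraries deeper, and the part of both in this difference was not tested.

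Among called regions at early-gained sites, 187 higher and 402 lower ones had groups that did not overlap (9.19% and 19.8% of their regions). Over all regions, 16.9% were higher and 16.8% lower in this way. The largest rise was inside Nckap5 (chr1:126168220-126168429), with 1.52, 2.09 and 1.92 CPM in aphidicolin libraries and 0.746, 0.668 and 0.600 CPM in untreated ones. Every aphidicolin library exceeded every untreated one there, and the log2 fold change was 1.46 ± 0.20 (SE, edgeR adjusted p = 0.000117). A region 8202 bp from Tmem182 had 2.77 ± 0.31 CPM in aphidicolin and 1.24 ± 0.09 CPM in untreated libraries (log2 fold change 1.16 ± 0.16). Rises of 1.37, 1.30 and 1.15 on the log2 scale were measured at regions nearest to Speer2, Efnb2 (ephrin-B2) and Tmem63c, of which the first pair lay 279349 and 506989 bp from that gene.

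The largest fall was 15394 bp from Gjb2 (connexin 26, a gap junction channel), with 0.610, 0.561 and 0.348 CPM in aphidicolin libraries and 1.45, 1.65 and 2.10 CPM in untreated ones. The groups were well apart, and the log2 fold change was -1.77 ± 0.23 (SE, edgeR adjusted p = 8.54e-05). A region 30764 bp from Col6a3, a collagen gene of the fibroblast matrix, had 1.81 ± 0.19 CPM in aphidicolin and 4.04 ± 0.45 CPM in untreated libraries, and 1 inside Zfp827 had 1.2 ± 0.075 CPM in aphidicolin and 2.75 ± 0.30 CPM in untreated libraries (SD, n = 3 each). Their log2 fold changes were -1.16 and -1.19. Regions nearest to Slc4a1ap and Tmem270 fell by 1.71 and 1.17 on the log2 scale. Levels were low there too, with means of 0.343 and 0.280 CPM in aphidicolin and 1.15 and 0.635 CPM in untreated libraries. Each of these 10 calls held in all 6 fits that left out 1 library.

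At the formative loci 3 regions of the count table overlapped an early-gained site, and none was called. The region at the distal Fgf5 site had 8.17, 6.88 and 6.94 CPM in aphidicolin libraries and 7.11, 7.75 and 5.75 CPM in untreated ones, with overlapping groups (log2 fold change 0.09 ± 0.11, edgeR adjusted p = 0.579). Inside Grhl2 the values were 12.6 ± 0.26 CPM in aphidicolin and 13.7 ± 0.69 CPM in untreated libraries (-0.12 ± 0.08, adjusted p = 0.269), and at Sall2 2.08 ± 0.19 CPM in aphidicolin and 2.0 ± 0.013 CPM in untreated libraries (0.08 ± 0.15, adjusted p = 0.694; edgeR, SD for levels and SE for fold changes, n = 3 each).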

How the data were processed

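The submitters' processing notes name the build mm10 and the tools Bowtie2 2.2.5, MACS2 2.2.0 and bedtools 2.26.0, without settings. Each deposited peak list gives coordinates with a score per peak, read here only within its own list. A single list stood for each group, apart from the aphidicolin experiment with a list per library. No source used here says whether ES cell replicates were pooled. MEF bulk lists were assigned to the mature capture by name and to the nascent capture by elimination. The authors' other table holds unnormalized read counts in 139000 regions. Its library numbers match no labelled sample and serve as names. Whether they pair the libraries is not settled, and the main fit did not use them as pairs. Any 2 libraries differed beyond sampling noise. Separate cultures are not stated, so p-values reflect spread among these samples, possibly technical.

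Overlap meant 1 bp or more. Positions came from 21887 protein-coding genes of GRCm38.p6 without strand, so a gene end is either end of a model. Loci extended 10 kb past both ends. Counts were tested with edgeR 4.0.16 in R 4.3.3 (TMM, filterByExpr, glmQLFit and glmQLFTest, threshold 0.05), with DESeq2 1.42.0 as an alternative, and tables were joined in Python 3.11.15. Overlap and count steps were tested on simulated data. The early-gained sites and the 14 gene lists were chosen with earlier results of these data known. Named were formative genes holding a site, up to 4 genes of each other list, the 10 loci with most sites, the 10 sites of highest 9h score, and the 5 largest folds each way among aphidicolin calls without overlap between groups. A few further genes were named after their values were seen. No genome was used, so motifs and sequences come from RefSeq promoter windows, a change made after the data were seen. Printed windows were ranked among genes off chromosome 18 only.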

Additional observations from a re-analysis of the deposited data

How the results depend on the processing

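The number of early-gained sites was 11315 when at least 50% of the site had to be covered at 48h, 11908 with scores of 50 or more and 11604 with no 0h peak within 500 bp.
In the same order the 9h mature share was 25%, 28.6% and 26.4%, and the 48h mature share 33.1%, 32.1% and 31.2%. With at least 50% of the site covered by the mature peak the shares were 25.4% at 9h and 28.5% at 48h, with mature scores of 50 or more 26.1% and 29.6%, and as the mean of the 5 score classes 43.8% and 37.6%. The share near a gene end was 5.29% with no 0h peak within 500 bp, 3.58% at 500 bp and 19.6% at 5 kb. Formative genes holding a site numbered 9 with no flank and 20 with 50 kb, and naive genes 2 and 11, where 19.6% and 56.7% of all genes held one. After aphidicolin, library totals gave 396 higher (19.5%) and 189 lower (9.29%) regions, against 30.3% and 7.99% of all regions. The median at early-gained sites was reversed to 0.084, and that of all regions moved from 0.018 to 0.175. Which scaling gives the true direction was not tested. Leaving out 1 library gave 109 to 220 higher regions (5.36% to 10.82%) and 254 to 469 lower ones (12.49% to 23.06%). Over all regions these fits gave 10.99% to 21.53% higher and 10.92% to 20.15% lower. The median relative to all regions was then -0.113 to -0.066, and the difference in library shares 2.83 to 4.19 points. Regions with a peak in all 6 lists gave 107 higher and 378 lower of 1504, and a relative median of -0.048. DESeq2 gave 138 higher (6.78%) and 397 lower (19.5%), against 14.3% and 16.8% of all regions. The motif search in a wider window around the peak centre was not run. The read depth behind the peak lists is unknown, and 1 list per group leaves counting error as the only error of the shares.

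Whether the column numbers pair the libraries is not settled. Deviations of same-numbered libraries correlated at 0.263, 0.0124 and 0.154. Aphidicolin libraries 1 and 3 correlated best with the untreated library of their own number, and aphidicolin library 2 with untreated library 3. With the number as a replicate block 247 regions at early-gained sites were higher (12.1%) and 510 lower (25.1%), against 21.6% and 21.9% of all regions.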
